A study of Mus musculus with 9 samples.

Results

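Oxidative phosphorylation is carried out by 5 protein complexes of the inner mitochondrial membrane, built from subunits of both the nuclear and the mitochondrial genome. Members were the rows of the gene table with protein_coding among their transcript types that either carry the KEGG pathway of oxidative phosphorylation or have a name starting with mt-. The vacuolar proton pump (names starting with Atp6v, and Tcirg1) was left out. This gave 91 of 55385 genes, 78 nuclear-encoded and 13 mitochondrially encoded. With protein_coding as the sole transcript type, the same rule would hold 34 genes, 21 of them nuclear-encoded. The nuclear members divided into 28 subunits of complex I, 4 of complex II, 9 of complex III, 15 of complex IV and 12 of complex V. A further 3 were assembly factors of complex IV, and 7 belong to none of the complexes. The mitochondrial members were 7 subunits of complex I, 1 of complex III, 3 of complex IV and 2 of complex V. Another 20 rows with subunit names have no KEGG entry in the table and are therefore not members; their values are given apart.

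The RNA came from MCP5, a mouse podocyte cell line of wild-type genotype. Podocytes are epithelial cells that wrap the capillaries of the kidney glomerulus. The study asked which genes differ among untreated control cells, cells given high glucose at 50 mmol/L and cells given advanced glycation end products (AGEs, sugar-modified proteins) at 400 µg/mL, with 3 libraries in each group. Not given in the sources used here are treatment times, the glucose of the control medium and any osmotic or carrier-protein control. Whether the libraries of a group are separate cultures is not stated either. The p-values therefore reflect the spread from library to library, which may be technical.

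In respiration, complex I (NADH dehydrogenase) and complex II (succinate dehydrogenase) pass electrons to coenzyme Q, complex III passes them to cytochrome c, and complex IV (cytochrome c oxidase) passes them to oxygen. Complexes I, III and IV pump protons, and complex V (ATP synthase) uses the gradient to make ATP. The mitochondrial genome is read as long transcripts from both strands that are cut into mRNAs, rRNAs and tRNAs. The mRNAs read from the same strand thus share their start of transcription but not their decay.

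Total counts per library ranged from 46284878 to 77242281. A first principal component with 41% of the variance separated the high glucose libraries from the others, and AGEs library 3 stood apart on the second. Of the 12 podocyte markers described here, 1 had 0 counts throughout and 9 passed the filter on low counts. Wt1 had counts in 1 library only, whereas Synpo, Podxl and Nphs1 were detected. Summed over the 12 podocyte markers, CPM (counts scaled to the library total) was 774.6 to 1088 in control, 1223 to 1299 in high glucose and 1170 to 1215 with AGEs. In high glucose 3 of the 9 tested podocyte markers rose (33.3%, beside 19.6% over all genes), Synpo and Nes among them. None fell by the test, and 2 had negative log2 fold changes, down to −0.65. Summed over the 8 markers of parietal epithelial cells, CPM was 1027 to 1060 in control and 2169 to 2366 in high glucose. Over the 9 tubular markers it was 195.2 to 207 and 731.8 to 858.2, with 3 of the 9 at 0 counts throughout. The 8 leukocyte markers went from 74.5 to 84.9 in control to 146.6 to 157.8 under high glucose, and the mesangial and endothelial lists were lower still. The part of these markers in the results was not tested. In RNA from whole cultures, fewer cells of a type and less RNA per cell cannot be told apart.

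Levels per gene are given as CPM, scaled between libraries by TMM, and levels between genes as the deposited FPKM, which is per transcript length. A gene was called when its adjusted p, from edgeR's quasi-likelihood test over 17680 genes with Benjamini-Hochberg adjustment, was under 0.05. Of the 91 members, 82 passed the filter on low counts and were tested, 69 nuclear and all 13 mitochondrial. The 9 others were the gastric and colonic proton pump genes Atp4a, Atp4b and Atp12a, and the tissue-restricted forms Cox4i2, Cox6b2, Cox7b2, Cox8b, Cox8c and Ndufa4l2. Of these, Cox7b2, Cox8b and Cox8c had 0 counts in all 9 libraries. In control, the median FPKM was 1469 over the mitochondrial members and 51.0 over the tested nuclear members. The highest mean was that of mt-Co1 (5599 ± 383 FPKM, SD, n = 3), a catalytic subunit of complex IV, and the highest nuclear mean was that of Atp5b (523 ± 24.9 FPKM), the catalytic beta subunit of ATP synthase.

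High glucose was compared with control to ask which respiratory genes responded to the sugar. Among 82 members, 16 were higher (19.5%) and 12 lower (14.6%). Over all genes tested, 19.6% were called higher and 19.7% lower, 39.3% together. The share of members called higher was close to that of all genes. The CPM of the groups did not overlap for 17 members that were higher and 16 that were lower, where over all genes 28.3% were higher and 25.8% lower without overlap. Of the 13 mitochondrial genes 7 rose (53.8%) and 0 fell; their median log2 fold change was 0.34. Of the 69 nuclear genes 9 rose (13%) and 12 fell (17.4%), with a median of −0.07, beside 0.03 over all genes. With 1 library left out, the nuclear median ranged from −0.10 to 0.0034, above 0 only without high glucose library 3, and the mitochondrial one from 0.22, without high glucose library 1, to 0.41. On the deposited FPKM values tested with limma on log2(FPKM + 1), which changes the scale and the test together, 21 nuclear members were higher and 4 lower, with a median of 0.10 beside 0.08 over all genes. There, 87.9% of the called members were higher, against 57.1% in the count fit, and 8 mitochondrial genes were higher with 0 lower. Over all genes, that fit called 7634 of 17680 in either direction. With DESeq2 size factors in edgeR, the calls numbered 16 higher and 12 lower, as with TMM. The median over all genes reached 0.17 on log2(FPKM + 0.1). Of the 28 calls, 15 held in every alternative that tested the gene (Cox6a2 did not pass the filter at a mean CPM of at least 1): mt-Nd1, mt-Nd2, mt-Nd3, mt-Nd5, mt-Cytb, Ndufb3, Sdhc, Uqcrh, Uqcr11, Atp5g3, Ppa2, Cox10, Cox6a2, Ppa1 and Atp6ap1. The other lower calls were each lost when any 1 of several libraries was left out, with fold changes that stayed negative. Of the 12 lower calls, 4 were left without control library 3 and 4 without high glucose library 3. Without high glucose library 1, 6 were left, and without control library 1, 7.

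Among the mitochondrial genes, those that rose were all subunits of complexes I and III. mt-Nd1 (chromosome MT, 2751 to 3707, plus strand), a membrane-arm subunit of complex I, measured 2685, 2712 and 2578 CPM in the control libraries, 5372, 4538 and 4082 under high glucose, and 2923, 3031 and 3618 with AGEs. Every high glucose library lay above every other library. The fold was 1.75 (log2 fold change 0.81 ± 0.11 SE, adjusted p = 0.000373). mt-Cytb (MT, 14145 to 15288), cytochrome b and the sole complex III subunit of this genome, measured 2058, 2009 and 1758 CPM in control, 3848, 3192 and 3068 under high glucose, and 2158, 2221 and 2690 with AGEs. It rose 1.74-fold, again without overlap (0.80 ± 0.12, adjusted p = 0.000532).

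mt-Nd3, another membrane-arm subunit of complex I, measured 134, 102 and 133 CPM in control and 249, 237 and 169 in high glucose. The groups did not overlap, and the log2 fold change was 0.83 ± 0.20 (adjusted p = 0.00839). mt-Nd2 rose by 0.40 ± 0.09 (adjusted p = 0.00736), from 1345 ± 70.1 to 1770 ± 233 CPM, and mt-Nd5 by 0.34 ± 0.08 (adjusted p = 0.00649), from 1462 ± 91.4 to 1845 ± 109 CPM. Both encode proton-pumping subunits, and in both the groups stayed apart. mt-Nd4 (0.36 ± 0.12, adjusted p = 0.037) and mt-Nd4l (0.48 ± 0.17, adjusted p = 0.046), which share 7 bases, were called less firmly. Without control library 2 or 3, high glucose library 1 or 2, or AGEs library 2, neither passed, and the adjusted p reached 0.132 for mt-Nd4 and 0.152 for mt-Nd4l. mt-Nd6 is the one mRNA read from the other strand and overlaps mt-Nd5 by 14 bases. Its level was 522, 496 and 464 CPM in control and 623, 521 and 487 in high glucose, which overlap, and it was not called (0.14 ± 0.09, adjusted p = 0.286).

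None of the 5 mitochondrial genes of complexes IV and V was called, and in all 5 the groups overlapped. mt-Co1 measured 10749, 9877 and 9371 CPM in control and 11665, 10294 and 9541 in high glucose (log2 fold change 0.07 ± 0.08). The values for mt-Co2 were 0.24 ± 0.19, for mt-Co3 −0.14 ± 0.22, for mt-Atp8 0.14 ± 0.21 and for mt-Atp6 0.05 ± 0.42, with the sign of mt-Co3 turning on FPKM. The signs of mt-Co1, mt-Co3 and mt-Atp6 turned when a library was left out. In genome order these 5 lie next to each other, between mt-Nd2 and mt-Nd3. mt-Atp6 had the widest standard error, and its AGEs library 1 had 829 CPM, against 3838 and 2151 in AGEs libraries 2 and 3 and 1961 to 2840 in the other 6 libraries. High glucose library 1 had the highest level of its group for each of the 13 genes. The median over the 13 of the log2 level relative to the control mean was 0.47, 0.32 and 0.12 in the high glucose libraries, and −0.08 to 0.11 in control.

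**Figure D1:**
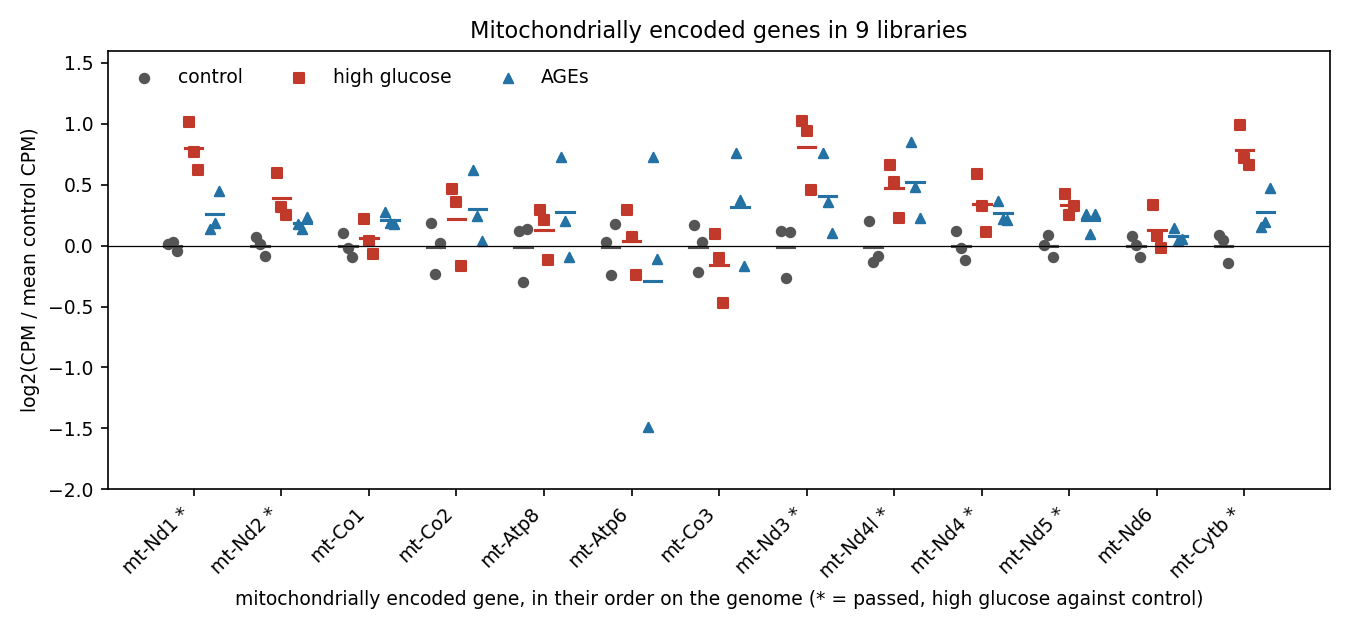
Each point is 1 library, shown as the log2 of its CPM over the mean control CPM of the same gene (y axis), for the 13 mitochondrially encoded genes in genome order (x axis); bars are group means and an asterisk marks a call in high glucose against control. The high glucose squares stand clear of the control circles for mt-Nd1, mt-Nd3 and mt-Cytb and mix with them from mt-Co1 to mt-Co3, and 1 AGEs triangle of mt-Atp6 lies far below the rest.

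As a share of all counts, the mitochondrial members took 2.63 ± 0.144% in control, 3.60 ± 0.423% under high glucose and 3.04 ± 0.147% with AGEs (SD, n = 3). The nuclear members took 1.14 ± 0.070%, 1.21 ± 0.075% and 1.05 ± 0.031%. The ratio of summed mitochondrial to summed nuclear FPKM was taken within each complex. The nuclear sums hold members only and leave out the 20 subunit rows with no KEGG entry, which belong to complexes I, IV and V. The part of those rows in the ratios was not tested. For complex I it was 4.85, 4.98 and 4.02 in control, 7.90, 6.73 and 6.68 under high glucose, and 6.78, 5.74 and 6.15 with AGEs, so that both treated groups lay above control without overlap. Complex III gave 2.25, 2.55 and 1.91 in control, 3.97, 3.39 and 3.70 under high glucose, and 2.87, 2.78 and 3.36 with AGEs, also without overlap with control. The complex IV ratio was 8.42 ± 1.21, 10.1 ± 0.996 and 11.0 ± 1.84 in the same order, and that of complex V 3.74 ± 0.28, 4.004 ± 0.46 and 4.399 ± 1.11. In these complexes high glucose and control overlapped. With AGEs, the complex IV ratios of 13.2, 10.2 and 9.82 lay above those of control, 9.76, 8.11 and 7.39, also without overlap, and the complex V ratios overlapped control. Ratios within a library do not depend on the scaling between libraries.

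**Figure D2:**
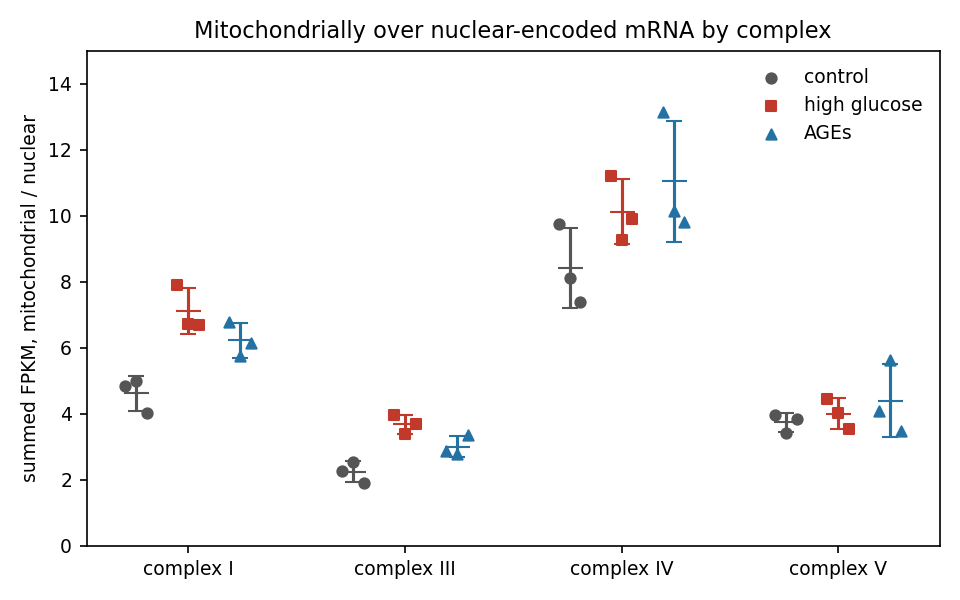
Ratio of the summed FPKM of mitochondrially encoded to nuclear-encoded subunits (y axis) in each of 9 libraries, for the 4 complexes that have subunits from both genomes (x axis). The sums hold members only, and bars give mean ± SD of 3 libraries. Complexes I and III separate the high glucose squares from the control circles, and complexes IV and V do not.

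The nuclear subunits of complex I are the core subunits that carry out catalysis and the supernumerary ones that surround them. Of the 6 core members 0 rose and 2 fell (33.3%), and of the 22 supernumerary members 2 rose and 2 fell (9.09% each). Over all genes, 19.6% were called higher and 19.7% lower. Ndufb3 (chr1:58586384-58595964, plus strand), a supernumerary subunit of the membrane arm, measured 40.2, 36.8 and 40.7 CPM in control, 62.9, 59.8 and 53.2 under high glucose, and 33.7, 34.2 and 33.5 with AGEs. It was highest in the 3 high glucose libraries, with no overlap, and rose 1.49-fold (0.58 ± 0.09, adjusted p = 0.000646). Ndufb10, of the same arm, rose by 0.36 ± 0.09 (adjusted p = 0.0131). It lost its call without control library 1 or high glucose library 1 or 2, with an adjusted p up to 0.0545.

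The members of complex I that fell did so by small amounts. Ndufs8, a core subunit that holds iron-sulfur clusters, measured 94.4, 98.9 and 103 CPM in control and 78.2, 86.8 and 73.1 in high glucose, without overlap (−0.32 ± 0.09, adjusted p = 0.0236). Ndufv1, the core subunit that binds NADH, fell by 0.30 on the log2 scale (adjusted p = 0.0295), and the supernumerary Ndufb11 and Ndufb9 by 0.36 and 0.34 (adjusted p = 0.0269 and 0.0282). Ndufb11 shares 117 bases with Rbm10 on the opposite strand. On the FPKM scale none of the 4 was called, and each lost its call without control library 3, high glucose library 1 or high glucose library 3, with adjusted p up to 0.0940, 0.102 and 0.0974 in that order of libraries. The most abundant nuclear member of complex I was Ndufb9, at 164 ± 17.6 FPKM in control.

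In complex II, all 4 subunits are nuclear-encoded, and 1 rose (25%, beside 19.6% over all genes). Sdhc, one of the membrane anchors that bind heme and coenzyme Q, measured 147, 140 and 157 CPM in control, 200.9, 215 and 178 under high glucose, and 137, 137 and 146 with AGEs. The high glucose libraries stood above all others, a rise of 1.34-fold (0.42 ± 0.08, adjusted p = 0.00312). Its partner anchor Sdhd had a difference of 0.14 ± 0.09 on the log2 scale (adjusted p = 0.243), and the catalytic pair Sdha and Sdhb had −0.10 ± 0.06 and −0.17 ± 0.08, none of them called.

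Complex III held the largest nuclear rise. Uqcrh (chr4:116066965-116075034, minus strand), the acidic hinge subunit that helps cytochrome c dock, measured 68.5, 51.4 and 64.5 CPM in control, 125, 130 and 107 under high glucose, and 59.9, 53.0 and 42.0 with AGEs. The groups did not overlap, and the rise was 1.97-fold (0.98 ± 0.15, adjusted p = 0.000812). A processed pseudogene on the opposite strand, Gm12854, lies within it over 297 bases and holds 11540 counts, against 47691 for Uqcrh. It also rose (0.93 ± 0.14, adjusted p = 0.000705), and without the strand setting the reads of the pair cannot be told apart. Uqcr11, a small subunit, rose from 66.6 ± 6.24 to 89.9 ± 3.06 CPM (0.43 ± 0.09, adjusted p = 0.00504). Uqcrq, a small subunit near the site where coenzyme Q binds, was called lower (−0.62 ± 0.20, adjusted p = 0.0315) although its groups overlapped, with 223, 145 and 171 CPM in control and 153, 102 and 95.9 in high glucose. It did not pass when control library 1 or 3 or high glucose library 2 or 3 was left out, with an adjusted p up to 0.121, nor on FPKM.

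Of the 9 nuclear members of complex IV that were tested, 0 rose and 3 fell (33.3%). Over all genes, 19.6% were called higher and 19.7% lower. Several of its subunits exist in a widespread form and a form typical of muscle, lung or testis. Cox6a1, the widespread form, measured 331, 309 and 371 CPM in control and 297, 292 and 264 in high glucose, without overlap but not called (−0.25 ± 0.09, adjusted p = 0.0667). Cox6a2 (chr7:128205435-128206387), the form of heart and skeletal muscle, had 46, 37 and 72 counts in control and 4, 0 and 0 in high glucose, with 12, 36 and 30 counts in the AGEs libraries. It was called lower (−5.39 ± 1.04, adjusted p = 0.00277) from a control mean of 1.03 ± 0.43 FPKM, beside 416 ± 36.5 FPKM for Cox6a1. The size of the fold depends on the handling of low values, and on log2(FPKM + 1) it was −0.97. In the other families, Cox4i1 and Cox8a were at 198 ± 56.9 and 382 ± 23.6 FPKM in control, and neither was called. The muscle form Cox7a1 was at 2.51 ± 0.548 FPKM and the widespread Cox7a2 at 65.7 ± 20.1, with log2 fold changes of 0.57 ± 0.26 and 0.32 ± 0.26 that did not pass.

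Cox7a2l encodes a related protein that joins complexes III and IV into supercomplexes. Its level was 203, 185 and 332 CPM in control, 111, 182 and 107 under high glucose, and 282, 302 and 253 with AGEs. The highest high glucose library lay just under the lowest control library. It was called lower (−0.84 ± 0.25, adjusted p = 0.0247), but not on FPKM. It also missed the threshold when control library 3 was left out (−0.54, adjusted p = 0.0842), and when high glucose library 1 or 3 was (adjusted p up to 0.0860). Cox5a, a structural subunit, fell by 0.33 (adjusted p = 0.0328), and its call was likewise lost without control library 1 or 3 or high glucose library 3, with an adjusted p up to 0.103, and on FPKM.

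The assembly factors of complex IV moved in both directions. Cox10 (chr11:63962627-64079468, minus strand), the farnesyltransferase of heme A synthesis, measured 39.1, 39.6 and 45.2 CPM in control, 22.3, 19.2 and 23.2 under high glucose, and 40.9, 38.1 and 42.1 with AGEs. High glucose was lower in every library, by 1.91-fold (−0.94 ± 0.10, adjusted p = 0.000118). Cox15, which completes heme A, measured 91.5 ± 3.39 and 78.2 ± 3.94 CPM (−0.23 ± 0.09, adjusted p = 0.0699). Cox17, a copper chaperone, was higher (0.35 ± 0.11, adjusted p = 0.0369), which did not hold when any 1 control library, high glucose library 2 or 3, or AGEs library 2 was left out, with an adjusted p up to 0.12.

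Of the 12 nuclear members of complex V, 1 rose and 1 fell (8.33% each), beside 19.6% higher and 19.7% lower over all genes. Atp5g3 (chr2:73908447-73911326, minus strand) is one of the genes for the c subunit, which forms the rotating ring. It measured 217, 189 and 249 CPM in control, 341, 333 and 287 under high glucose, and 175, 187 and 196 with AGEs. The high glucose libraries lay above the rest, a rise of 1.47-fold (0.56 ± 0.11, adjusted p = 0.00297). Its paralogs encode the same mature protein: Atp5g1 stood at −0.20 ± 0.11 on the log2 scale (adjusted p = 0.181), and Atp5g2, a subunit row without a KEGG entry, fell from 361 ± 41.2 to 253 ± 29.1 CPM (−0.51 ± 0.11, adjusted p = 0.0054). Atp5b measured 2561, 2428 and 2703 CPM in control and 2226, 2215 and 2093 in high glucose. It fell by 0.24 on the log2 scale without overlap (adjusted p = 0.026), which did not hold when control library 1 or 3 or any 1 high glucose library was left out, with an adjusted p up to 0.0813. On log2(FPKM + 1) its value was −0.06.

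**Figure D3:**
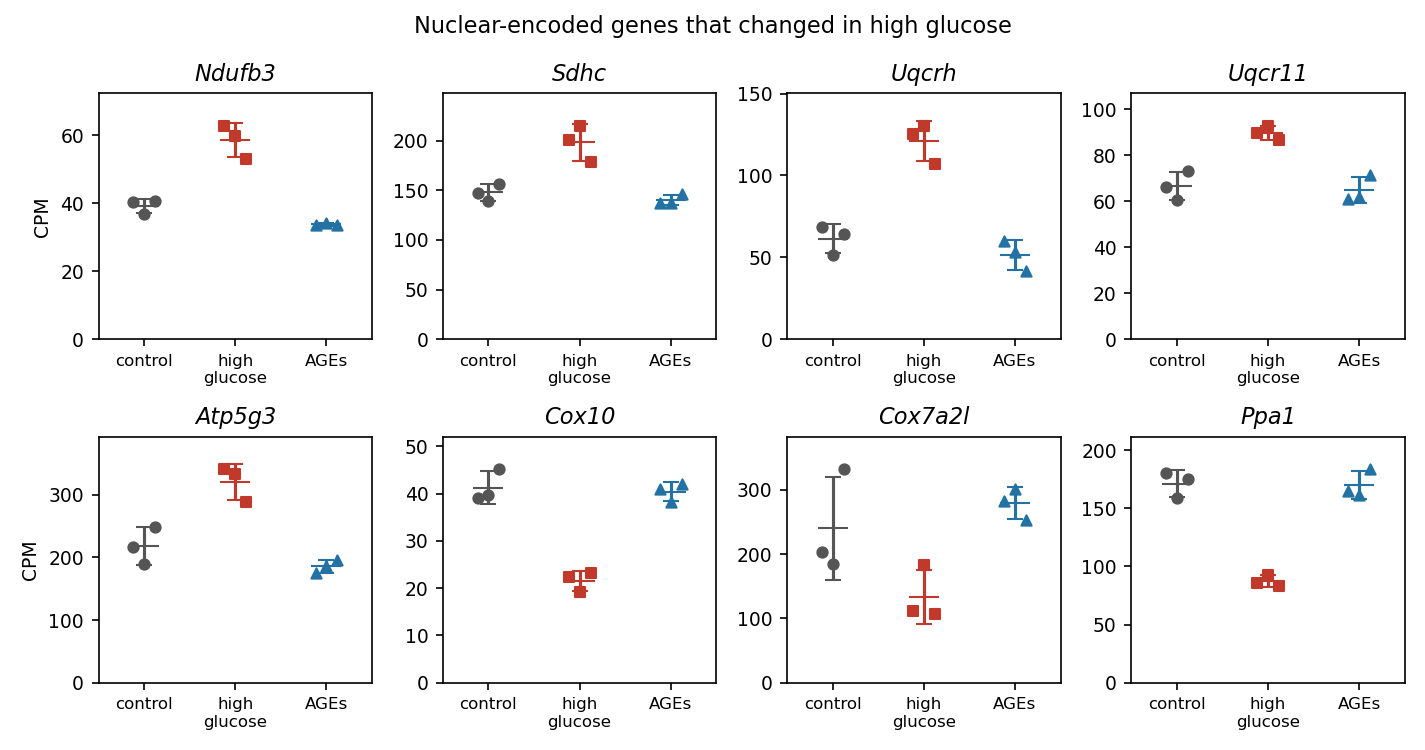
CPM (y axis, from 0) of 8 nuclear-encoded members in the 9 libraries by group (x axis); points are libraries and bars mean ± SD of 3. Ndufb3, Sdhc, Uqcrh, Uqcr11 and Atp5g3 are high and Cox10 and Ppa1 low in the 3 high glucose libraries, and for Cox7a2l the highest high glucose library comes close to control.

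The 4 tested members outside the complexes were all called in high glucose, where 39.3% of all genes were called. Ppa1 (chr10:61648552-61674168, plus strand), the cytosolic inorganic pyrophosphatase, measured 180, 158 and 175 CPM in control, 85.5, 93.0 and 83.1 under high glucose, and 165, 161 and 184 with AGEs. The high glucose libraries lay far under the others, a fall of 1.96-fold (−0.97 ± 0.08, adjusted p = 2.69e-05), which was the smallest adjusted p among the members. Ppa2, the mitochondrial pyrophosphatase, rose from 27.6 ± 0.838 to 38.4 ± 4.47 CPM (0.47 ± 0.11, adjusted p = 0.00592). Atp6ap1, an accessory subunit of the vacuolar proton pump that the name rule did not remove, fell from 136 ± 11.4 to 89.1 ± 5.48 CPM (−0.61 ± 0.08, adjusted p = 0.000364). Lhpp, a phosphatase that acts on phosphohistidine, measured 23.5, 22.3 and 25.5 CPM in control and 46.4, 49.7 and 25.9 in high glucose (0.77 ± 0.24, adjusted p = 0.0299). It lies within the span of Fgfr2 on the opposite strand, which rose by 2.24 ± 0.13 (adjusted p = 3.35e-06), and its call was lost without any 1 control library or high glucose library 1 or 2, with an adjusted p up to 0.108.

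**Figure D4:**
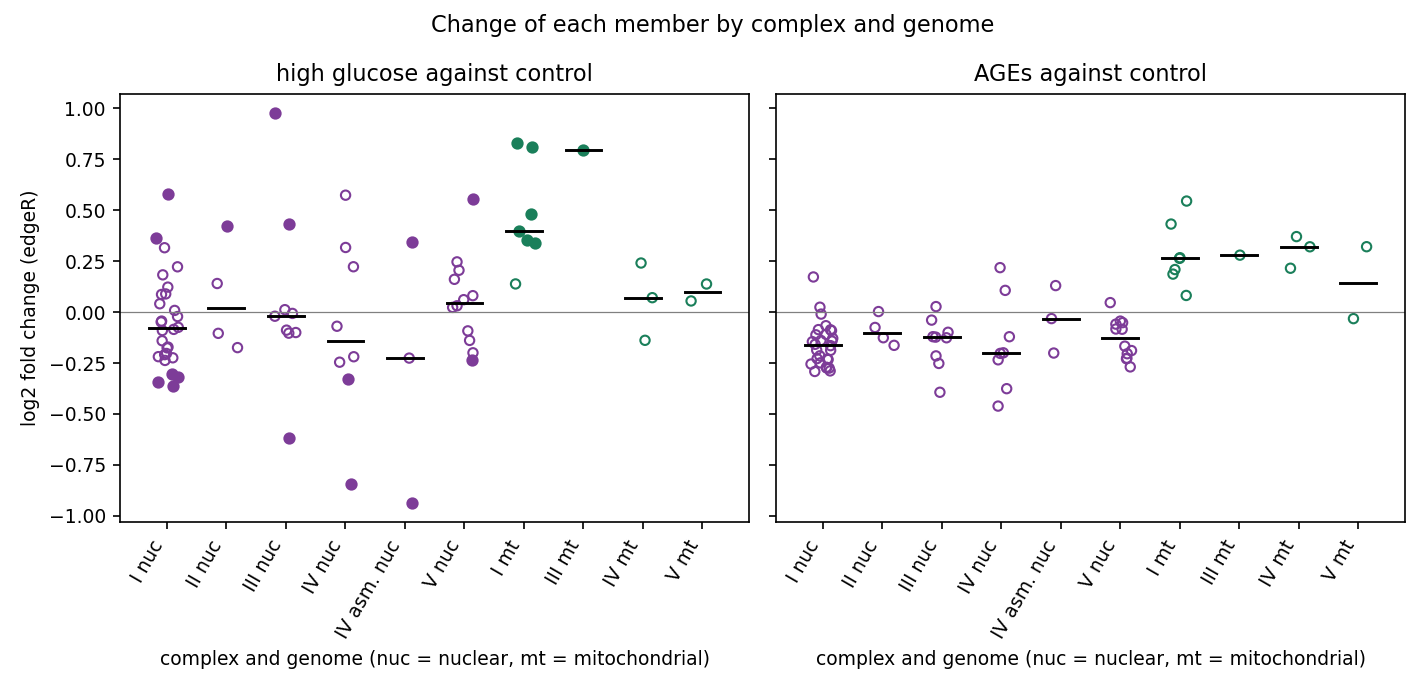
Log2 fold change from the count fit (y axis) of each tested member by complex and genome (x axis), for high glucose (left) and AGEs (right) against control; filled points were called, bars are medians, and green points are mitochondrially encoded. Cox6a2, at −5.39 and −1.11, and the members outside the complexes are not drawn. On the left, mt-Nd3, mt-Nd1 and mt-Cytb lie near the top and the nuclear Uqcrh above them, and on the right, where no point is filled, most nuclear genes lie under 0 and most mitochondrial genes above it.

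Across the 69 tested nuclear members, the log2 fold change in high glucose had a Spearman's rho of 0.015 with transcript length implied by count and FPKM. With mean FPKM it was −0.137. For AGEs against control the values were 0.351 with length and 0.101 with mean FPKM, so that shorter transcripts tended to have lower fold changes with AGEs. These are descriptions across genes that share libraries, and the part of length was not tested. Reads of an overlapping gene on the other strand could enter 32 members. Of the 42 tested nuclear members without such an overlap, 7 rose (16.7%) and 8 fell (19%) in high glucose, beside 19.6% and 19.7% over all genes. Among the 19 tested subunits with no KEGG entry, 4 rose (21.1%) and 2 fell (10.5%) in high glucose, with a median of 0.19. Those that rose were Cox7b (0.59 ± 0.07, adjusted p = 0.000205) of complex IV, Atp5k (0.54 ± 0.12) and Atp5md (0.45 ± 0.08) of complex V and Ndufb2 (0.35 ± 0.12) of complex I. Beside Atp5g2, Ndufa10 fell (−0.35 ± 0.09). Cox6b1 and Ndufa4, whose tissue-restricted relatives did not pass the filter, had 0.29 ± 0.10 and 0.20 ± 0.18 and were not called.

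Promoter windows were read from the RefSeq table (build GRCm38.p6), which held 58 of the 78 nuclear members. Letters known to be bound by regulators of respiratory genes were searched on both strands, in 250 bases before to 50 after each start. The NRF1 core was found in 24.1% of members, against 5.19% of 27025 genes in the table. The ETS core CCGGAAG, read by the respiratory regulator GABP, was found in 24.1% against 9.93%, the YY1 core AAGATGGC in 15.5% against 3.19%, and the nuclear receptor motif AAGGTCA in 10.3% against 5.38%. Among members that rose or fell in high glucose the counts were small: the ETS core was in 2 of 6 that rose and 2 of 9 that fell, and the NRF1 core in 1 of 6 and 1 of 9. A match is a description of letters and not of binding. The windows shown belong to the members that were called in every alternative that tested them and hold a match. Each holds up to 250 bases before the RefSeq start, cut off at the start of the deposited gene where that comes first. Where another protein-coding gene reaches into a window from its far end, the window begins after that gene. The matched letters (on either strand) are in capitals. Uqcrh, Uqcr11 and Atp5g3 rose, at chr4:116075071-116075268, chr10:80406831-80407071 and chr2:73911327-73911576, and Cox10 and Ppa1 fell, at chr11:64079473-64079722 and chr10:61648371-61648551; Ppa1 is on the plus strand and the others on the minus strand, each written 5′ to 3′.
Uqcrh: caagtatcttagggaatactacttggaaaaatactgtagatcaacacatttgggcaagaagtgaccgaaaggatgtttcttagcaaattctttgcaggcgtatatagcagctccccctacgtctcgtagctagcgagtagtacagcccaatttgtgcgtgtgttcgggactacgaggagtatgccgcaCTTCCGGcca
Uqcr11: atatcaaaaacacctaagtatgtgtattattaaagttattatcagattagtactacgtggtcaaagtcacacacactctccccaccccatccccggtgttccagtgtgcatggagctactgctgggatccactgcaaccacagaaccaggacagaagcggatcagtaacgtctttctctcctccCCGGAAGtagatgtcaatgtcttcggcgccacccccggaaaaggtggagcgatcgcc
Atp5g3: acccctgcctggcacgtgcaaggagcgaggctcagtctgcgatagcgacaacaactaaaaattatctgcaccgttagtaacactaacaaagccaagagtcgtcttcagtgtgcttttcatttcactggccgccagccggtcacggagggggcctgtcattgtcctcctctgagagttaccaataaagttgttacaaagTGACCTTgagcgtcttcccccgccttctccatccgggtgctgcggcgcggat
Cox10: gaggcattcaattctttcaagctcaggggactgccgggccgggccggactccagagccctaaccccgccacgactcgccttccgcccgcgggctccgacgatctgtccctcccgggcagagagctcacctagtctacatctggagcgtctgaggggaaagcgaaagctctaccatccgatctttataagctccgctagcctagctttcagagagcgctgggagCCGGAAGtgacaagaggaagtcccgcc
Ppa1: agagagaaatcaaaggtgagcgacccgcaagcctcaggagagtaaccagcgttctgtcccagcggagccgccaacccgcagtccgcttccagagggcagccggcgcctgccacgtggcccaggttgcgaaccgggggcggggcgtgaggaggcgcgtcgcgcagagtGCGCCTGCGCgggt
Uqcr11, which rose, and Cox10, which fell, hold the ETS core in the same orientation (CCGGAAG), and Uqcrh, which rose, holds it in the other (CTTCCGG). Atp5g3 holds the reverse of the nuclear receptor motif (TGACCTT) and Ppa1 the NRF1 core (GCGCCTGCGC, read on the other strand). The regulators themselves were listed with 17 tested genes. In high glucose 3 rose (17.6%) and 2 fell (11.8%), beside 19.6% and 19.7% over all genes. Yy1 rose (0.74, adjusted p = 7.36e-05), and Myc fell by 1.70 and Pprc1, a coactivator of NRF1, by 1.31 on the log2 scale (adjusted p = 5.66e-05 and 0.00281). Gabpa overlaps Atp5j on the opposite strand and was not called (−0.12 ± 0.11, adjusted p = 0.411).

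Other lists of mitochondrial genes show what surrounded the subunits in high glucose. Over all genes tested, 19.6% were called higher and 19.7% lower. Of 45 assembly factors of the complexes, 7 rose (15.6%) and 11 fell (24.4%), near the shares of all genes, with a median of −0.13. Ndufaf4, an assembly factor of complex I, went from 22.2 to 5.15 CPM (−2.11, adjusted p = 0.00135), Sco2, which delivers copper to complex IV, fell by 1.01 (adjusted p = 0.00031) and Sdhaf4, a maturation factor of complex II, rose by 0.86 (adjusted p = 0.000337). Of 29 genes for replication, transcription and RNA processing of the mitochondrial genome, 0 rose and 14 fell, with a median of −0.31, while the mRNAs of that genome rose or were not called. The largest changes by p were Top1mt, the mitochondrial topoisomerase (−0.79), Twnk, the helicase (−0.59), and Rrm2b, a nucleotide reductase subunit (−1.03). The lists were chosen with earlier results of these data known, and their counts are descriptions.

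Among 21 electron carrier and coenzyme Q genes, 3 rose (14.3%) and 10 fell (47.6%), beside 19.6% and 19.7% over all genes. Chdh, choline dehydrogenase, went from 26.0 to 119 CPM (2.20), and Prodh, proline dehydrogenase, from 35.5 to 10.9 CPM (−1.70). Coq8a, a kinase-like protein of coenzyme Q synthesis, had the lowest value, from 11.9 to 3.39 CPM (−1.82, adjusted p = 0.00821). Coq5, a coenzyme Q methyltransferase, fell by 0.93. Of 21 genes of the citric acid cycle and pyruvate dehydrogenase, 5 rose (23.8%) and 8 fell (38.1%). Pcx, pyruvate carboxylase, fell by 1.49, and Dld and Pdhb, subunits of pyruvate dehydrogenase, by 0.65 and 0.61. Of 17 genes of the outer membrane, protein import and carriers, 1 rose (5.88%) and 11 fell (64.7%). The import receptor Tomm20 fell by 1.05 and the ADP/ATP carriers Slc25a4 and Slc25a5 by 0.78 and 0.75. Of 12 genes of the mitochondrial unfolded protein response, 2 rose (16.7%) and 9 fell (75%). Among those that fell were the protease Lonp1 (−1.46) and the chaperones Hspa9 (−1.23) and Hspd1 (−1.46). Summed over those 12 genes, CPM was 4275 to 4426 in control and 2393 to 2436 in high glucose.

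**Figure D5:**
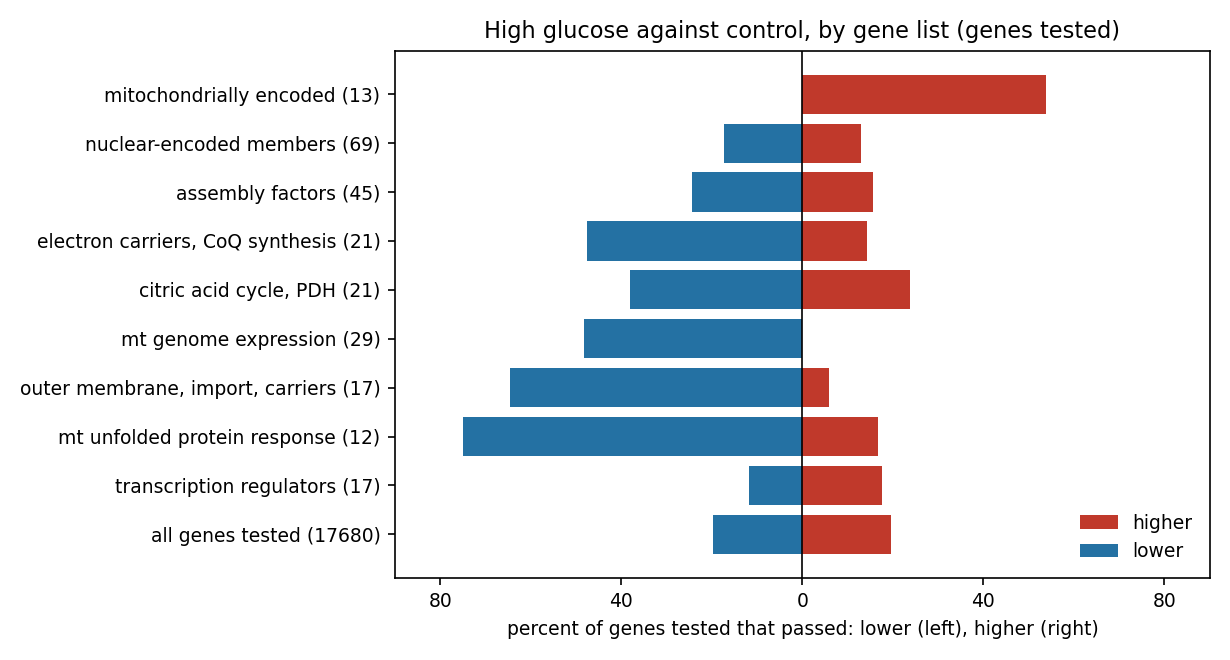
Percent of tested genes (x axis) called lower (left, blue) and higher (right, red) in high glucose against control, for the members by genome, 7 related lists and all genes tested (y axis, number tested in brackets). The mitochondrially encoded genes have a bar to the right only, the mitochondrial genome expression list a bar to the left only, and the nuclear members are shorter on both sides than all genes tested.

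AGEs were compared with the same control libraries that served for high glucose. Among the 82 members, 0 were called in either direction by edgeR, and DESeq2 also called 0; 16 had an unadjusted p under 0.05. Over all genes the test called 0.0848%, with 0.0509% higher and 0.0339% lower. The lowest adjusted p was 0.302, for mt-Nd4l (0.54 ± 0.17), whose AGEs libraries, at 514, 399 and 335 CPM, lay above the control libraries at 327, 259 and 269. The signs divided by genome without passing the test: 60 of 69 nuclear members had a negative log2 fold change, with a median of −0.15, and 12 of 13 mitochondrial members a positive one, with a median of 0.27, beside −0.0047 over all genes. In the alternatives that left out a library, the nuclear median ranged from −0.20 to −0.10 and the mitochondrial one from 0.19 to 0.32. By library, the nuclear median log2 level relative to the control mean was 0.0009, −0.105 and 0.106 in control. With AGEs it was −0.202, −0.110 and −0.095, so that control library 2 lay under AGEs library 3 and the groups overlapped. The mitochondrial medians, at 0.107, −0.015 and −0.078 in control and 0.280, 0.218 and 0.182 with AGEs, did not overlap. The groups did not overlap for 15 nuclear members that were lower and 1 that was higher, and for 7 mitochondrial members that were higher, where over all genes 9.73% were lower and 9.47% higher without overlap.

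Individual values with AGEs were small. mt-Co1 measured 12123, 11368 and 11326 CPM, all above control (0.21 ± 0.08, adjusted p = 0.365), and mt-Nd5 was likewise above (0.21 ± 0.08, adjusted p = 0.347). mt-Co2, mt-Co3 and mt-Atp8 were highest in AGEs library 1 and overlapped control. Among the nuclear members, Ndufv3 (−0.29 ± 0.11, adjusted p = 0.361), Ndufb8 (−0.25 ± 0.10, adjusted p = 0.37) and Cox8a (−0.23 ± 0.10, adjusted p = 0.391) had every AGEs library under every control library. The core subunit Ndufs1, which carries iron-sulfur clusters, went the other way, at 140, 145 and 132 CPM against 131, 125 and 114 (0.17 ± 0.07, adjusted p = 0.399). Cox6a2, Cox10 and Ppa1, which were low in high glucose, had log2 fold changes with AGEs of −1.11 ± 0.81, −0.03 ± 0.10 and −0.01 ± 0.08. Of the related lists only the citric acid cycle list had a call, Suclg2, a subunit of succinate-CoA ligase, which rose (0.90, adjusted p = 0.0128).

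The treatments were then compared with each other, which is the test of whether the responses to high glucose and to AGEs differ. Against high glucose, 7 members were higher with AGEs and 19 lower, where over all genes 39.9% were called, 19.7% higher and 20.2% lower. The CPM of the groups did not overlap for 10 members that were higher and 24 that were lower with AGEs, where over all genes 25.2% were higher and 27.3% lower without overlap. The split was 26.9% higher among the called members and 11.1% on FPKM, where 5 were higher and 40 lower. The median over all genes there was −0.09 on log2(FPKM + 1), beside −0.02 in the count fit. The 19 lower became 11 without high glucose library 1. Of the 26 calls 16 held in every alternative that tested the gene. The other 10 were Cox7a1, Sdhd, Atp5d, Cox7a2, Ndufb8, Ndufc1, Ndufv3, Ppa2, Ndufs1 and Ndufs8. Of these, Ndufs1 missed the threshold in 11 of 18 alternatives and Ndufs8 in 8. Most of the strongest differences were genes already named, since the high glucose libraries enter both comparisons. With AGEs, mt-Nd1 was lower by 0.55 ± 0.11 (adjusted p = 0.00341) and mt-Cytb by 0.52 ± 0.11 (adjusted p = 0.00585), the only mitochondrial members called. Ndufb3 and Atp5g3 both stood at −0.79 (adjusted p = 0.000102 and 0.000402), Sdhc at −0.50 ± 0.08 and Uqcrh at −1.23 ± 0.15. In the opposite direction were Cox10 (0.90 ± 0.10), Ppa1 (0.96 ± 0.08), Cox7a2l (1.06 ± 0.25) and Atp6ap1 (0.45 ± 0.08).

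Several members differed between the treatments although neither treatment was called against control. Ndufa3, a supernumerary subunit of complex I, measured 59.3, 55.6 and 51.0 CPM under high glucose and 36.5, 40.5 and 40.6 with AGEs, with control between at 48.1, 39.4 and 54.7 (−0.50 ± 0.12, adjusted p = 0.0103). Atp5j, the coupling factor of complex V, measured 134, 108 and 111 CPM in high glucose, 86.3, 84.5 and 83.2 with AGEs and 87.5, 98.9 and 120 in control (−0.47 ± 0.12, adjusted p = 0.0122). For both, high glucose lay above AGEs in every library and control overlapped high glucose. Cox7a1 had the largest difference of this kind, from 2.32 ± 0.136 to 1.20 ± 0.286 CPM (−0.95 ± 0.26, adjusted p = 0.0175), a call lost without high glucose library 1 or AGEs library 2 (adjusted p up to 0.0584). Sdhd, the partner anchor of Sdhc, stood at −0.30 ± 0.09 (adjusted p = 0.0205), lost without high glucose library 1 or 2 or AGEs library 3 (adjusted p up to 0.0801).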

How the data were processed

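RNA sequencing measured gene expression in 9 libraries of MCP5 mouse podocytes, 3 in each of 3 groups. The authors deposited, per the file headers, 1 table holding read counts in whole numbers beside FPKM values for each library. The submitters' processing notes name the build GRCm38, cutadapt 1.9 and FastQC. Not given in the sources used here are the aligner, counting tool, strand setting and library selection, so reads of overlapping genes and near-identical copies are uncertain. In the deposited FPKM columns a count of 0 is written as 0.0001.

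The deposited counts were tested with edgeR 4.0.16 (glmQLFit and glmQLFTest, two-sided) in R 4.3.3, after filterByExpr (17680 genes) and TMM scaling, with 3 group means in 1 fit and no covariate. The common biological coefficient of variation was 0.278. P-values were adjusted by Benjamini-Hochberg over all genes tested, at a threshold of 0.05. CPM of single genes uses TMM library sizes, and values summed over a list of genes use library totals without TMM. A standard error is the absolute log2 fold change over the square root of F. The code was tested on simulated data. Alternatives were DESeq2 1.42.0 and its size factors, other filters (none, or mean CPM of at least 1), limma 3.58.1 on log2(FPKM + 1) and log2(FPKM + 0.1), only the 2 groups compared, mitochondrial genes left out of the totals, a replicate block and each library left out. Replicates of a group differed by more than sampling noise (chi-square per degree of freedom 47.7 to 109.5).

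The members, the related lists, the markers and the named genes were chosen with earlier results of these data known. Named by rule were the 13 mitochondrial genes, the most abundant nuclear member of each complex, up to 3 higher and 3 lower calls per complex and comparison, isoform families and members outside the complexes. Cox10, Cox15, Cox17, Ndufv1 and members named from overlaps were added after their values were seen. The comparison with high glucose and that with AGEs share the control libraries, and AGEs against high glucose shares libraries with both. Of the members, 79 of 91 have the same position in GENCODE M21.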

Additional observations from a re-analysis of the deposited data

Results flagged for a closer look

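In rows outside the members, 3 mitochondrial tRNA genes were called higher in high glucose, with more counts in each of its libraries than in any control library. Over all genes tested, 19.6% were called higher. mt-Tk had 4, 4 and 2 counts in control and 31, 20 and 28 in high glucose (log2 fold change 2.81, adjusted p = 0.0176, edgeR). mt-Tl2 had 2, 3 and 2 counts in control and 44, 41 and 65 in high glucose (4.24, adjusted p = 0.00312). mt-Tl1 had 842, 1020 and 825 counts in control and 2253, 1102 and 1689 in high glucose (0.74, adjusted p = 0.00101). Counts of mt-Tk and mt-Tl2 are low.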

How the results depend on the processing

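Of the 28 member calls in high glucose against control 15, and of the 26 in AGEs against high glucose 16, held under every alternative that tested the gene (Cox6a2 was not tested at a mean CPM of at least 1). On log2(FPKM + 1) and log2(FPKM + 0.1), limma, with each pseudocount, called 29 members higher and 4 lower in high glucose, and 5 higher and 40 lower with AGEs against high glucose. Over all 17680 genes, in either direction, it called 7634 and 7546 in high glucose, where the count fit called 6946. In AGEs against high glucose it called 7823 and 7774, where the count fit called 7053. These all-gene calls were not divided by direction. These fits change the scale and the test together, and they apply no TMM factors. In the count fit the factors were 0.959 to 0.974 in control, 1.073 to 1.104 in high glucose and 0.935 to 0.961 with AGEs. Their part in the changed calls and medians was not tested. The nuclear median in high glucose turned from −0.07 to 0.10, the mitochondrial median became 0.51, and against high glucose the AGEs medians became −0.28 (nuclear, both pseudocounts) and −0.27 (mitochondrial). The medians over all genes moved as well. In high glucose they went from 0.03 to 0.08 (pseudocount 1) and 0.17 (pseudocount 0.1). In AGEs against high glucose they went from −0.02 to −0.09 and −0.18. Over all genes, DESeq2 called 325 in AGEs against control, where edgeR called 15. Without 1 library, lower calls ranged from 4 to 13 in high glucose and from 11 to 20 in AGEs against high glucose.

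The shared replicate numbers did not pair the libraries (correlations of deviations from −0.067 to 0.084). With the replicate number as a block, 14 members were higher and 8 lower in high glucose, 6 and 16 in AGEs against high glucose, and 5 genes were called in AGEs against control.

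Signs that turned belonged to values that were not called. In high glucose against control, FPKM turned Cox8a to 0.10, Ndufs1 to 0.12 and 0.13, Uqcr10 to 0.17 and mt-Co3 to 0.027, and a mean CPM of at least 1 turned Uqcr10 to 0.022. Without 1 library, values in high glucose ranged from −0.55 to 0.0048 for Cox4i1, −0.11 to 0.074 for Uqcr10, −0.082 to 0.18 for mt-Atp6, −0.015 to 0.13 for mt-Co1 and −0.28 to 0.0017 for mt-Co3, and with AGEs against control from −0.64 to 0.37 for mt-Atp6. The cause of these changes was not tested. Depth was not limiting for most members, but Cox6a2 rests on at most 72 counts per library.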

Other observations

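The rRNAs of the mitochondrial genome did not follow its mRNAs in high glucose. mt-Rnr1, the small-subunit rRNA, had 55953, 58920 and 54846 counts in control and 17478, 10062 and 13309 in high glucose (log2 fold change −2.20 ± 0.24, adjusted p = 9.96e-05, edgeR). All 3 high glucose libraries lay under all control libraries, and of the AGEs libraries, 1 and 2 were at 58731 and 58756 and library 3 at 29613. mt-Rnr2, the large-subunit rRNA, fell by 0.39 on the log2 scale (adjusted p = 0.0334). Both rRNAs together took 0.133 ± 0.00352% of counts in control, 0.0617 ± 0.00479% in high glucose and 0.117 ± 0.0342% with AGEs (SD, n = 3). How rRNA was depleted or mRNA selected is not given in the sources used here, and its part in these values was not tested.

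Of the 22 mitochondrial tRNA rows, mt-Tv and mt-Ts2 were not tested. In high glucose 5 fell and 3 rose, where over all genes tested 19.7% were called lower and 19.6% higher. mt-Tp had 1692, 1659 and 1548 counts in control and 546, 349 and 369 in high glucose (−2.08 ± 0.21). mt-Ta and mt-Tn, neighbours on the other strand, had −1.64 ± 0.21 and −1.65 ± 0.21, mt-Tw had −0.68 ± 0.20, and mt-Tf, with 14, 13 and 14 against 2, 1 and 2 counts, had −3.11 ± 0.90. With AGEs 0 of the 22 tested rRNA and tRNA rows were called by edgeR, with 0 at an unadjusted p under 0.05, and 0 were called by DESeq2.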
